A study of Rattus norvegicus with 59 samples.

Results

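The thin filament actins and troponins are 4 genes of the rat heart muscle contractile apparatus, picked by identifier from 22938 genes in the count tables. They are Acta1 (ENSRNOG00000017786), Actc1 (ENSRNOG00000008536), Tnnt2 (ENSRNOG00000033734) and Tnni3 (ENSRNOG00000018250). All 4 were present in both count tables and in the 12848-gene table that set PCM1-positive against PCM1-negative nuclei, and all 4 passed the filter on low counts in every comparison. RNA was taken from left ventricle nuclei of male Sprague Dawley rats that were sorted on PCM1, a centrosome-associated protein used to pick out cardiomyocyte nuclei. Banded aorta rats, which started at about 170 g, had the ascending aorta narrowed for 6 weeks and were kept only when the heart was hypertrophied, with a posterior wall above 1.9 mm, and not failing. Sham-operated rats of the same starting weight were their controls. Exercise rats, which started at about 280 g, ran treadmill intervals for 6 weeks, and untrained control rats started at the same weight. The labels name no transgene or deletion in any group. There were 4 libraries in each group and 16 in all, from a series of 59 samples that also holds histone mark data, which were not analysed here. Nothing in the labels states that the libraries of a group come from different animals; every p-value below therefore rests on the variation among these libraries, which may be technical.

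Muscle thin filaments are polymers of actin that carry tropomyosin and the troponin complex. When calcium binds troponin, the inhibitory subunit releases actin and myosin heads can pull on the filament. Acta1 encodes skeletal muscle alpha-actin, which the fetal and neonatal rodent heart makes in quantity and the adult heart makes less of; its return is a classic sign of pressure-overload hypertrophy in rodents. Actc1 encodes cardiac alpha-actin, the main actin of the adult heart. Tnnt2 encodes cardiac troponin T, which ties the complex to tropomyosin. Tnni3 encodes cardiac troponin I, the inhibitory subunit of the adult heart. Both actin proteins are nearly identical, and no source used here gives the rule by which reads that fit both genes were counted; the Acta1 level carries that uncertainty.

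The sequences just before the start sites of the 4 genes are shown so that the actin pair and the troponin pair, whose joint variation is described further on, can be set side by side. They are the 120 bases before the RefSeq start in the GRCr8 assembly, read 5′ to 3′ on the gene's own strand, and capitals mark matches to a CArG box, an M-CAT element or a TATA box. They lie at chr19:68784195-68784314 on the minus strand for Acta1, chr3:121271828-121271947 on the minus strand for Actc1, chr13:49819003-49819122 on the plus strand for Tnnt2 and chr1:78342451-78342570 on the plus strand for Tnni3.
Acta1: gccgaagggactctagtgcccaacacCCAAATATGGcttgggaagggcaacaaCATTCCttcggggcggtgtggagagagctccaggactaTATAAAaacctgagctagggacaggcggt
Actc1: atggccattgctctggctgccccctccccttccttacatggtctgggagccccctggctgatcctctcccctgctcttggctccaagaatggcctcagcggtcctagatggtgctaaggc
Tnnt2: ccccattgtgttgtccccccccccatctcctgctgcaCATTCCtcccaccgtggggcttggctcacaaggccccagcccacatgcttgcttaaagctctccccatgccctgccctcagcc
Tnni3: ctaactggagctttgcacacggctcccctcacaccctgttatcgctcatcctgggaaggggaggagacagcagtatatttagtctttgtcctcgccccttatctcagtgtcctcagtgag
The CArG box, bound by serum response factor, was searched by its name as a run of 10 letters with CC, 6 A or T, and GG; the M-CAT element, bound by TEAD factors, as CATTCC; the TATA box as TATAAA; and the E-box, bound by basic helix-loop-helix factors, as CANNTG. Both strands were searched over 300 bases, from 250 before the start to 50 after it, and in the 4 genes no match overlapped another. Acta1 held 1 CArG box at positions -94 to -85, 1 M-CAT element at -67 to -62 and 1 TATA box at -29 to -24, counted back from the RefSeq start, plus 1 E-box outside the stretch shown. Actc1 held 1 CArG box, after the start at positions 3 to 12, and none of the other 3. Tnnt2 held 1 M-CAT element at -83 to -78 and 4 E-boxes before its first start, the one shown. The window of a second Tnnt2 RefSeq start held 1 E-box and none of the other 3. Tnni3 held none of the 4 motifs. Among 33469 RefSeq promoter windows of this length, 1.64% held a CArG box, 14.2% an M-CAT element, 14.2% a TATA box and 72.1% an E-box. These matches describe letters in a window and say nothing of binding.

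Library depth was between 1822538 and 14394757 counts. Sham-operated replicates 2 and 3 differed by little more than counting error: the mean squared difference was 1.27 times what counting gives, against 6.05 to 84.8 times in the 23 other within-group pairs. They were therefore added together and counted as 1 sample, which leaves 3 sham-operated samples and 15 in all. Banded aorta replicate 1 and sham-operated replicate 1 stood apart: 1319 genes that the authors' PCM1 table puts over 8-fold higher in PCM1-negative nuclei took 4.45% and 4.32% of their counts, against 0.536% to 1.68% in the other 14 libraries. By group this share ranged from 0.859% to 4.45% in banded aorta, from 0.658% to 4.32% in sham-operated, from 0.611% to 0.865% in exercise and from 0.536% to 0.956% in control libraries. In bulk nuclei, fewer nuclei of a type and less RNA per nucleus cannot be told apart.

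All 4 genes were higher in PCM1-positive than in PCM1-negative nuclei. The header of the authors' deposited table does not state the direction of its fold. The fold was taken as PCM1-negative over PCM1-positive from control replicate 1. Its log2 level minus the table's average log2 level ran against the table's fold over the 12844 other genes. The r was -0.84, across genes, which are not independent replicates. In the authors' deposited table Tnni3 was 35.9-fold higher in PCM1-positive nuclei (false discovery rate 3.68e-06) and Acta1 was 34.2-fold higher (2.11e-19). In the authors' deposited table Tnnt2 was 32.5-fold higher (0.000610) and Actc1 was 27.4-fold higher (2.31e-10). The authors' false discovery rate under 0.05 in this direction held for 4 of 4 members, against 24.0% of all genes in the table. Between 0.171% and 0.592% of genes were as far or farther than each member in this direction. The labels list 5 PCM1-positive and 2 PCM1-negative control samples. The PCM1-negative samples are replicates 1 and 5, numbers that PCM1-positive control samples also carry. The header does not state which samples entered. The table gives no value per library, so the spread between samples was not seen.

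**Figure D1:**
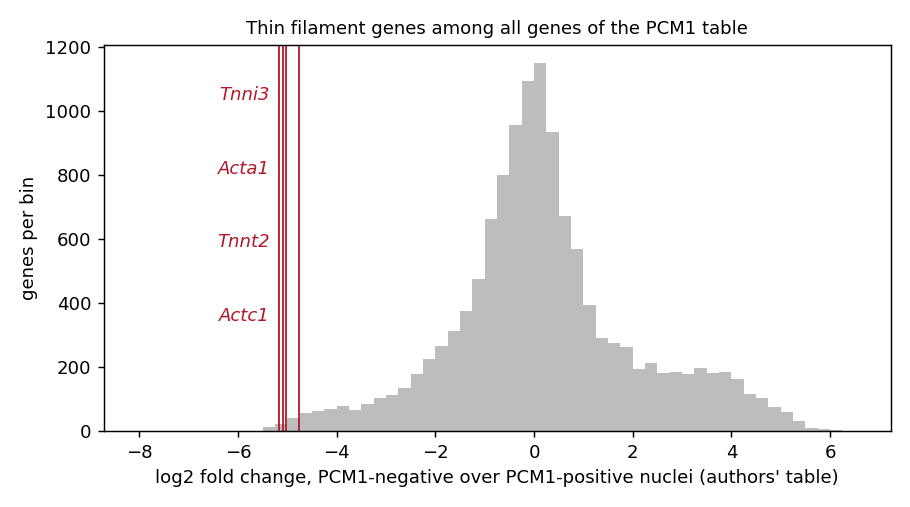
Histogram of the authors' log2 fold of PCM1-negative over PCM1-positive nuclei for 12848 genes in steps of 0.25, with red lines at the 4 members. All 4 lines lie in the left tail, between -5.16 for Tnni3 and -4.77 for Actc1, the PCM1-positive side under the direction inferred from control replicate 1.

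Acta1, skeletal alpha-actin, was the member that varied most. Its level ran from 1.89 to 191 CPM, counts scaled to a common library total, over the 15 samples, a 101-fold range, while the highest sample was 3.06 times the lowest for Actc1, 2.09 times for Tnni3 and 1.67 times for Tnnt2. Banded aorta libraries 1 to 4 held 144, 99.5, 191 and 78.1 CPM of Acta1, and sham-operated libraries 1 to 4 held 108, 39.3, 37.8 and 24.7 CPM. Sham-operated replicate 1 lay above 2 of the 4 banded aorta libraries, so the groups overlapped, while the other 3 sham-operated libraries lay below all of them. Exercise libraries 1 to 4 held 25.7, 15.9, 3.29 and 1.89 CPM, and control libraries 1 to 4 held 2.44, 14.3, 9.81 and 13.6 CPM. The 2 groups ran across each other, with 2 exercise libraries above all control libraries and 1 below them all. The lowest of these levels rest on few reads: 11 in exercise replicate 4 (exact 95% Poisson interval 0.942 to 3.38 CPM), 19 in control replicate 1 (1.47 to 3.80 CPM) and 25 in exercise replicate 3 (2.13 to 4.86 CPM). Such intervals cover counting error only. Group means were 128 ± 50.1 CPM in banded aorta (SD, n = 4), 57.0 ± 44.7 in sham-operated (n = 3), 11.7 ± 11.2 in exercise (n = 4) and 10.0 ± 5.43 in control samples (n = 4). In that order the exercise and control means lay within 1 SD of each other, and the banded aorta and sham-operated means were further apart than either SD although their ranges overlapped.

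**Figure D2:**
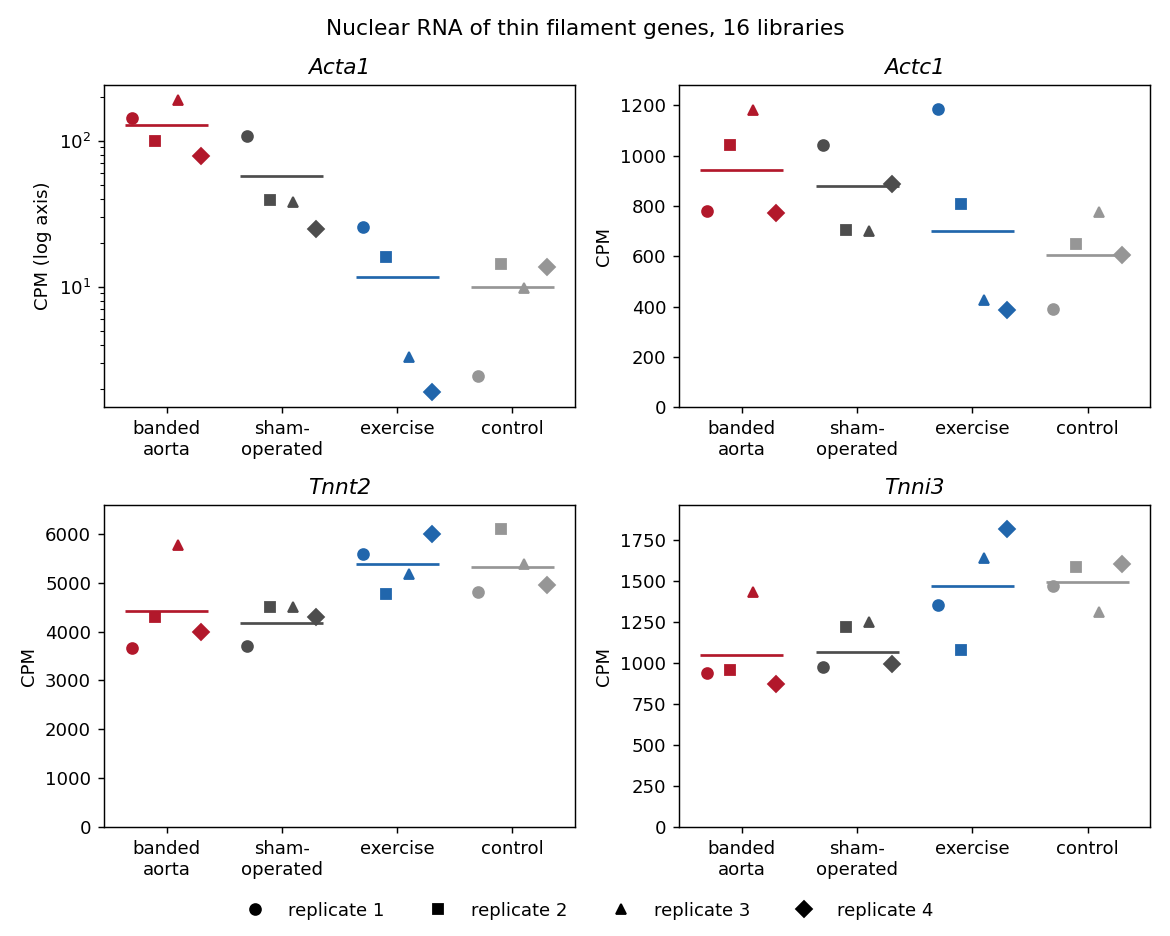
Each panel shows 1 gene and each point 1 library, by group, in CPM (log axis for Acta1, linear from 0 for the others). Bars are group means, with the counts of sham-operated replicates 2 and 3 added together as 1 sample. Acta1 spans 1.89 to 191 CPM. Its highest library is in banded aorta, and sham-operated replicate 1 lies inside the banded aorta range. Tnnt2 stays between 3654 and 6100 CPM.

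Actc1, cardiac alpha-actin, held 781, 1043, 1182 and 773 CPM in banded aorta libraries 1 to 4, and 1044, 706, 700 and 889 CPM in sham-operated libraries 1 to 4. The groups overlapped over most of their range. Exercise libraries 1 to 4 held 1186, 808, 426 and 388 CPM, and control libraries 1 to 4 held 391, 649, 775 and 603 CPM. Exercise held both the highest and the lowest of these 8 libraries. Group means were 945 ± 202 CPM in banded aorta (SD, n = 4), 878 ± 171 in sham-operated (n = 3), 702 ± 374 in exercise (n = 4) and 604 ± 160 in control samples (n = 4), and no neighbouring pair in this order was further apart than the larger SD of the pair.

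Tnnt2, cardiac troponin T, held 3654, 4291, 5779 and 3989 CPM in banded aorta libraries 1 to 4, and 3696, 4498, 4511 and 4305 CPM in sham-operated libraries 1 to 4. Banded aorta held both the highest and the lowest of these 8. Exercise libraries 1 to 4 held 5595, 4768, 5178 and 5985 CPM, and control libraries 1 to 4 held 4818, 6100, 5389 and 4962 CPM, and these groups overlapped too. Means were 4428 ± 937 CPM in banded aorta (SD, n = 4), 4172 ± 426 in sham-operated (n = 3), 5381 ± 525 in exercise (n = 4) and 5317 ± 576 in control samples (n = 4).

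Tnni3, cardiac troponin I, held 942, 961, 1434 and 872 CPM in banded aorta libraries 1 to 4, and 976, 1220, 1252 and 995 CPM in sham-operated libraries 1 to 4. Banded aorta replicate 3 lay above every sham-operated library and the other 3 lay below them all. Exercise libraries 1 to 4 held 1355, 1080, 1642 and 1821 CPM, and control libraries 1 to 4 held 1471, 1590, 1312 and 1604 CPM. The control libraries lay inside the exercise range. Means were 1052 ± 257 CPM in banded aorta (SD, n = 4), 1072 ± 150 in sham-operated (n = 3), 1475 ± 326 in exercise (n = 4) and 1494 ± 135 in control samples (n = 4).

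Pressure overload was addressed by banded aorta against sham-operated samples. None of the 4 members passed edgeR's quasi-likelihood test, which called 0.00788% of 12689 genes (1 gene, lower in banded aorta; 234 at an unadjusted p under 0.05) after Benjamini-Hochberg adjustment. Acta1 had the largest fold of the members, 2.31-fold higher in banded aorta (log2 fold change 1.21, SE 0.48, edgeR adjusted p = 1.00). Of all genes tested, 106 had a fold at least as far from 0. The exact permutation test of its log2 CPM gave p = 0.0857, two-sided over 35 splits, of which the smallest possible is 0.0286. The log2 fold changes of the other members were 0.12 (SE 0.24) for Actc1, 0.079 (SE 0.28) for Tnnt2 and -0.037 (SE 0.25) for Tnni3, each smaller than its SE. The ranges of 0 of 4 members were free of overlap, against 3.29% of 12650 genes.

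The Acta1 fold depended on which libraries entered, among them the sham-operated library that stood apart. Without sham-operated replicate 1 it was 1.93 on the log2 scale (edgeR adjusted p = 0.999), and without that library and banded aorta replicate 1 together it was 1.94 (edgeR adjusted p = 0.920). The second of these was chosen after seeing the data. Banded aorta replicate 1 and sham-operated replicate 1 are the libraries with 4.45% and 4.32% of counts in genes enriched in PCM1-negative nuclei; Acta1 itself was 34.2-fold higher in PCM1-positive nuclei in the authors' deposited table, and the part of that share in the result was not tested. Whichever single library was dropped, the log2 fold change stayed above 0, between 0.87 and 1.93. It was 0.87 without sham-operated replicate 4, 0.93 without banded aorta replicate 3 and 1.21 without banded aorta replicate 1.

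The authors' deposited table reported Acta1 differently. In the authors' deposited table Acta1 stood at 6.93 log2 RPM, the authors' depth-scaled read count, in banded aorta and 5.27 in sham-operated nuclei, a 3.16-fold difference at a false discovery rate of 6.32e-23. The authors' deposited table called 1 of 4 members, against 2.63% of all genes (604 of 22938). Its Acta1 group values lay within 0.024 log2 units of the median of the 4 libraries in both groups, so its sham-operated value lies at the level of replicates 2 and 3. The authors' deposited table gave a false discovery rate of 1.00 for Actc1, 0.730 for Tnnt2 and 0.109 for Tnni3.

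Training was addressed by exercise against control samples. None of the 4 members passed edgeR's test, which called 0.0% of 10815 genes (761 at an unadjusted p under 0.05, and 37 genes called by DESeq2). The log2 fold changes were 0.27 (SE 0.73) for Acta1, 0.25 (SE 0.33) for Actc1, 0.050 (SE 0.13) for Tnnt2 and 0.015 (SE 0.15) for Tnni3, all smaller than their SE. The sign for Acta1 rested on single libraries: its log2 fold change was -0.69 without exercise replicate 1, -0.16 without control replicate 1, and -0.16 as a difference of mean log2 CPM. Exact permutation p ran from 0.600 to 0.971. In the authors' deposited table all 4 members had a false discovery rate of 1.00, against 1.27% of genes called. The ranges of 0 of 4 members were free of overlap, against 3.94% of 12650 genes.

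The difference between both effects, banding minus training, was tested as an interaction over all 15 samples. It called 0.00791% of 12650 genes and no member. Acta1 had a log2 difference of 0.92 with an SE of 0.99 (adjusted p = 1.00 by edgeR), and the other 3 members lay between -0.13 and 0.020, with SEs of 0.27 to 0.46. A response of Acta1 particular to banding was therefore not shown at this spread between samples.

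**Figure D3:**
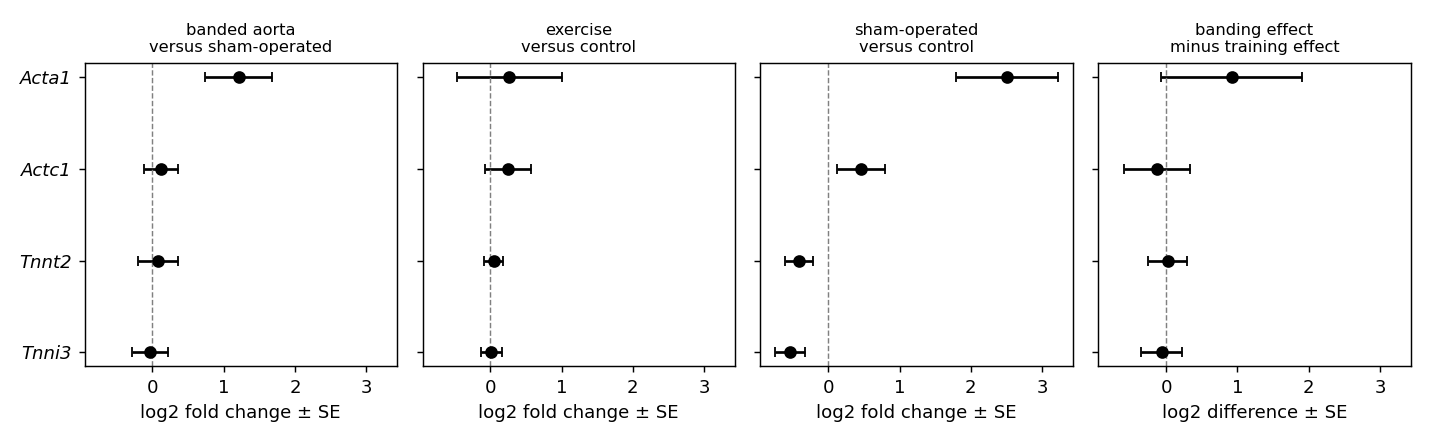
Points are edgeR log2 fold changes (log2 difference of the 2 effects in the right panel) and bars are ± 1 SE, for the 4 members in 4 comparisons. The Acta1 points lie furthest to the right in every panel, and its SE in exercise versus control, 0.73, exceeds its fold change, 0.27.

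The largest differences lay between the baselines of both experiments, where surgery, starting weight and the experiment itself cannot be told apart. Sham-operated against control samples, edgeR called 0.941% of 12650 genes (119; 43 higher and 76 lower) and none of the 4 members. Acta1 was 5.69-fold higher in sham-operated samples (log2 fold change 2.51, SE 0.72, edgeR adjusted p = 0.114). Without sham-operated replicate 1, the library that stood apart, the log2 fold change was 1.76 (edgeR adjusted p = 0.469), and over all libraries left out it lay between 1.76 and 2.85. Tnni3 had a log2 fold change of -0.54 (SE 0.21, adjusted p = 0.212), Tnnt2 of -0.41 (SE 0.20, adjusted p = 0.310) and Actc1 of 0.46 (SE 0.34, adjusted p = 0.541). The ranges of Acta1, Tnnt2 and Tnni3 did not overlap, 3 of 4 members, against 13.3% of genes: every sham-operated sample was higher for Acta1 and lower for both troponins. Their exact permutation p was 0.0286, the smallest that 35 splits allow, and 0.114 after adjustment over 12 such tests. The share of counts in genes enriched in PCM1-negative nuclei ran from 0.658% to 4.32% in sham-operated libraries and from 0.536% to 0.956% in control libraries, and its part in these differences was not tested.

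Within a library, Acta1 counts were set against Actc1 counts, a ratio in which the library total cancels. Acta1 came to 18.4%, 9.54%, 16.2% and 10.1% of the Actc1 count in banded aorta libraries 1 to 4, and to 10.4%, 5.57%, 5.40% and 2.78% in sham-operated libraries 1 to 4. Sham-operated replicate 1 lay above 2 banded aorta libraries, as it did for Acta1 alone. The ratio was 2.16%, 1.97%, 0.773% and 0.487% in exercise libraries 1 to 4, and 0.624%, 2.20%, 1.27% and 2.26% in control libraries 1 to 4. It was lowest in exercise replicates 3 and 4 and control replicate 1, the deepest libraries of that experiment. Their totals were 7595166, 5828094 and 7802197 counts, and the part of depth in the ratio was not tested. All banded aorta and sham-operated libraries lay above all exercise and control libraries. Surgery, starting weight and the experiment itself cannot be told apart in this difference. The share of other gene pairs that separate the experiments in this way was not computed. Means were 13.6 ± 4.41% in banded aorta (SD, n = 4), 6.19 ± 3.84% in sham-operated (n = 3), 1.35 ± 0.841% in exercise (n = 4) and 1.59 ± 0.786% in control samples (n = 4). Counts were not scaled by gene length, so the ratio compares libraries and not the genes' own levels. The ratio of Tnni3 to Tnnt2 counts moved far less, between 21.9% and 32.3% over all samples.

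**Figure D4:**
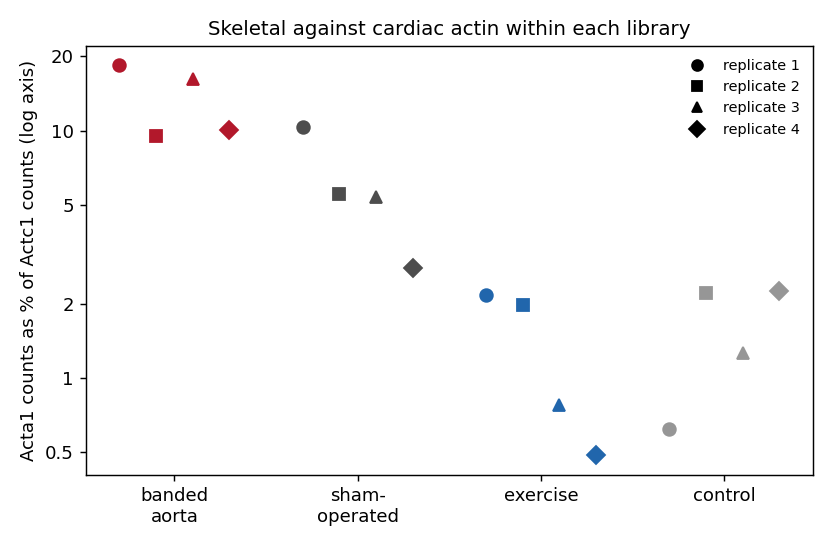
Each point is 1 library, with Acta1 counts as a percentage of Actc1 counts on a log axis, by group. The banded aorta libraries sit between 9.54% and 18.4%, the sham-operated between 2.78% and 10.4%, and all exercise and control libraries at 2.26% or below.

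Correlations of log2 CPM were taken within each experiment, 12 in all, because levels differed between the reference groups of the experiments. Sham-operated and control ranges did not overlap for 3 of 4 members. With all groups taken in, the ranges of the experiments overlapped for every member. In the exercise experiment Acta1 and Actc1 varied together (r = 0.92, rho = 0.90, n = 8, exact permutation p = 0.00203 for r and 0.00456 for rho, adjusted p = 0.0238 and 0.0405). Without exercise replicate 4 and control replicate 1, the 2 samples farthest from the Acta1 median, r was 0.86. With each sample left out in turn r lay between 0.90 and 0.96. The adjusted p of r rose above the threshold without exercise replicate 1 (r = 0.91, exact permutation adjusted p = 0.0869). For rho the exact permutation adjusted p rose above it in more cases. It was 0.143 without exercise replicate 1, 2 or 3, 0.0738 without exercise replicate 4 and 0.0714 without control replicate 1. Both actins were lowest in exercise replicates 3 and 4 and in control replicate 1, so the pattern crosses the groups. Those 3 libraries were also the deepest of the 8, at 7595166, 5828094 and 7802197 counts against 1822538 to 5196751 in the others, and the part of depth was not tested. In the surgery experiment the same pair had r = 0.37 (n = 7, exact permutation adjusted p = 0.613).

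In the surgery experiment the troponins varied together: for Tnnt2 and Tnni3 r was 0.90 and rho 0.93 (n = 7, exact permutation p = 0.00397 and 0.00675, adjusted p = 0.0238 and 0.0405). Without banded aorta replicate 1 and sham-operated replicate 1, the 2 samples farthest from the Tnnt2 median, r was 0.92. With each sample left out in turn r lay between 0.81 and 0.93, but the call was lost in several cases. Without banded aorta replicate 3, which stood apart for Tnni3, r was 0.81 (exact permutation adjusted p = 0.242). For r the exact permutation adjusted p was 0.100 without banded aorta replicate 1 and also without banded aorta replicate 4. It was 0.0667 without sham-operated replicate 4, and 0.050 without the sum of sham-operated replicates 2 and 3. Scaling by total counts gave r = 0.87 with an exact permutation adjusted p of 0.0607, just over the 0.05 threshold. In the exercise experiment their r was 0.45 (n = 8, exact permutation adjusted p = 0.534), and 0.72 without control replicates 1 and 4, the 2 samples farthest from the Tnnt2 median. Actc1 and Tnni3 ran in opposite directions there (r = -0.69, exact permutation adjusted p = 0.205), as did Acta1 and Tnni3 (r = -0.64, adjusted p = 0.250), and neither passed the threshold. That a pair passed in one experiment and not in the other was not itself tested.

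**Figure D5:**
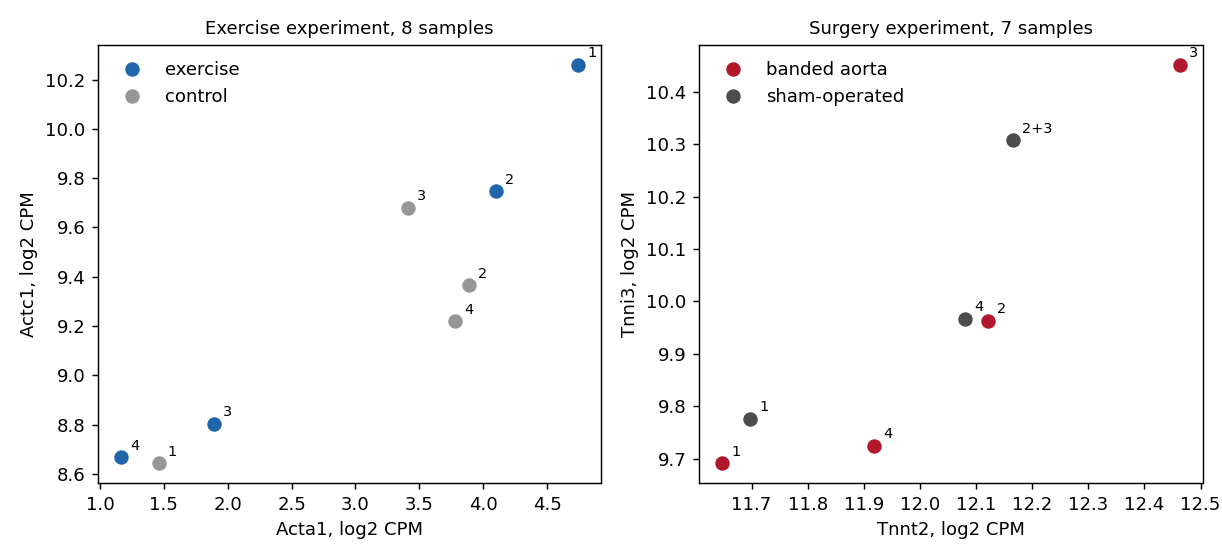
Left, Actc1 against Acta1 in log2 CPM for the 8 exercise experiment samples; right, Tnni3 against Tnnt2 for the 7 surgery experiment samples, with replicate numbers beside the points. In both panels the points climb together (r = 0.92 and r = 0.90) with both groups mixed along the line.

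Over all 15 samples, each member's most similar gene among the other 12649 was found by Pearson's r of log2 CPM, given as a description. For Acta1 it was ENSRNOG00000006056 (r = 0.92), for Actc1 ENSRNOG00000028238 (r = 0.92), for Tnnt2 ENSRNOG00000015049 (r = 0.94) and for Tnni3 ENSRNOG00000002669 (r = 0.95). These r values hold the difference in level between the experiments. The members ranked near each other within their own kind: Tnni3 was 34th in the order of Tnnt2, Tnnt2 was 42nd in that of Tnni3, Acta1 was 23rd in that of Actc1 and Actc1 was 154th in that of Acta1. Acta1 and Tnni3 lay at opposite ends (r = -0.75).

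Together the 4 genes took 0.655 ± 0.141% of counts in banded aorta (SD, n = 4), 0.618 ± 0.0341% in sham-operated (n = 3), 0.757 ± 0.0742% in exercise (n = 4) and 0.743 ± 0.0701% in control samples (n = 4). The banded aorta and sham-operated ranges overlapped, as did those of exercise and control samples. The sham-operated range, 0.582% to 0.650%, lay below the control range, 0.668% to 0.835%, and this difference was not tested. Tnnt2 made up most of the sum, with means of 4172 CPM in sham-operated and 5317 CPM in control samples. Acta1 and Actc1 went the other way, with higher means in sham-operated than in control samples.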

How the data were processed

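RNA from PCM1-sorted left ventricle nuclei was analysed in 16 libraries of 1822538 to 14394757 counts; chromatin files were not used. The authors deposited whole-number counts per gene, smallest stored value 1; 2 nameless rows, equal to column totals, were left out. The authors also deposited tables of log2 values, comparison p-values and false discovery rates. Bowtie, SAMtools, R 2.15.1 and edgeR are named per the submitters' processing notes; the sources used here give no aligner settings, build, strand or counting rule.

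Sham-operated replicates 2 and 3 were summed, less 1, as 1 sample. Genes were filtered with filterByExpr (minimum count 10, total 15), scaled by TMM and tested with edgeR 4.0.16 quasi-likelihood F tests in R 4.3.3, Benjamini-Hochberg over all genes, threshold 0.05. SE is the fold change over the root of F. The code was tested on simulated data; the interaction recovered fewer of the changed genes than the other comparisons. DESeq2 1.42.0 and limma 3.58.1 voom were alternatives. CPM are per library total; log2 CPM used a prior count of 2.

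The members, lists and rule for named genes (the members and the most similar gene to each) were chosen with earlier results of these data known. Pooled correlations over 15 samples had been planned. They are given within experiments, because sham-operated and control samples differed in level for 3 of 4 members. No table here paired other Ensembl identifiers with symbols (0 of 47357 RefSeq entries carry one), so further thin filament genes and cell type markers were not tested. Promoters are from RefSeq, GRCr8; 4 of 4 members matched.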

Additional observations from a re-analysis of the deposited data

Results flagged for a closer look

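Tnni3 in banded aorta replicate 3 stood apart from the other 3 libraries of its group, at 1434 CPM against 942, 961 and 872 CPM, with a gap to its nearest neighbour of 0.841 of the whole range. Of 18 groups of values examined this way, 1 passed, and chance passes about 1 in 20. That library was the shallowest of the surgery experiment, at 2575080 counts, and it also held the highest Acta1, Actc1 and Tnnt2 levels of the banded aorta group.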

How the results depend on the processing

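No member passed the adjusted threshold of a fit across all genes in any comparison or alternative, and the exact permutation test was past 0.05 without adjustment for 3 members of sham-operated versus control samples, with log2 differences of 2.38 (Acta1), -0.42 (Tnnt2) and -0.55 (Tnni3). The Acta1 log2 fold change in banded aorta versus sham-operated samples was positive in every alternative. Depth limits Acta1 most, at 11 to 107 counts in exercise and 19 to 51 in control libraries. The causes of the changes below were not tested.

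Genes called in banded aorta versus sham-operated samples were 1 in the fit reported, 0 with total-count scaling and with voom, and 2 with DESeq2 and with edgeR's classic exact test, an alternative chosen after seeing the data. In exercise versus control samples they were 37 with DESeq2 and 43 with the classic test. In the interaction they were 4 with DESeq2, and 0 with total-count scaling, with voom and with 1 taken off every count. In sham-operated versus control samples they were 483 with DESeq2 and 192 with sham-operated replicates 2 and 3 kept apart. With single libraries left out, called genes ran from 0 to 1 in banded aorta versus sham-operated, exercise versus control and the interaction, and from 30 (without sham-operated replicate 4) to 201 (without banded aorta replicate 1) in sham-operated versus control samples. Without sham-operated replicates 2 and 3 together, the last comparison had 613.

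Signs changed mostly for folds near 0. In banded aorta versus sham-operated samples the log2 fold change of Tnnt2 was -0.023 with no count filter. In exercise versus control samples Acta1 was -0.21 with voom and -0.16 as a difference of mean log2 CPM, and Tnni3 was -0.019 with total-count scaling, -0.018 with voom and -0.0047 as a difference of means. In the interaction Tnnt2 was -0.014 with sham-operated replicates kept apart and -0.069 with no count filter, and Actc1 was 0.068 without banded aorta replicate 1 and sham-operated replicate 1. With libraries left out, 1 at a time or as the sham-operated pair 2 and 3 or both replicates 1, the ranges in banded aorta versus sham-operated samples were 0.87 to 1.94 for Acta1, -0.015 to 0.32 for Actc1, -0.088 to 0.21 for Tnnt2 and -0.24 to 0.12 for Tnni3. In exercise versus control samples they were -0.69 to 0.67 for Acta1, -0.13 to 0.45 for Actc1, -0.0038 to 0.12 for Tnnt2 and -0.10 to 0.13 for Tnni3. In the interaction they were 0.52 to 1.87 for Acta1, -0.34 to 0.23 for Actc1, -0.14 to 0.15 for Tnnt2 and -0.26 to 0.10 for Tnni3. In sham-operated versus control samples they were 1.76 to 2.85 for Acta1, 0.27 to 0.60 for Actc1, -0.53 to -0.28 for Tnnt2 and -0.72 to -0.43 for Tnni3. With total-count scaling the correlation of Acta1 and Tnnt2 was 0.13 in the surgery and 0.016 in the exercise experiment, and that of Tnnt2 and Tnni3 in the surgery experiment was 0.87. With sham-operated replicates kept apart the correlation of Acta1 and Tnni3 in the surgery experiment was -0.11.

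Replicate numbers were not taken to pair the samples, because not every same-numbered pair was over 0.1 in the following correlations. Deviations from the group mean were correlated across genes. For same-numbered libraries r was 0.0896 to 0.76 in the surgery experiment and -0.0211 to 0.138 in the exercise experiment. For different-numbered libraries it was -0.652 to 0.561 and -0.138 to 0.132. These values do not settle whether the surgery samples were paired. With the replicate number as a block, Acta1 was -0.082 and Tnni3 -0.0062 in exercise versus control samples. Where sham-operated libraries entered, the block fit also kept replicates 2 and 3 apart, so both choices changed at once. Acta1 in banded aorta versus sham-operated samples was then 1.41 (edgeR adjusted p = 0.371), against 1.30 with those replicates kept apart and no block. In the interaction that block fit called 0 genes, with Actc1 at 0.028 and Tnnt2 at -0.037, against -0.014 for Tnnt2 with the replicates kept apart and no block. No such fit was made for sham-operated versus control samples. Of all settings beside those reported, 415 results kept direction and side of the threshold, 41 changed sign, 42 moved, 3 passed the threshold anew and 1 no longer passed it.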
